A study of Mus musculus with 8 samples.

Results

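The photoreceptor transcription factors described here are 10 genes: Otx2, Crx, Neurod1, Nrl, Nr2e3, Samd7, Mef2d, Rorb, Thrb and Rxrg. They were chosen by gene name, and each matched 1 of the 54532 genes in the deposited tables of counts and of FPKM, fragments scaled by gene length and library size. All 10 passed the filter on low counts that left 17004 genes for testing. RNA was measured in mouse retina, in 4 libraries labelled sIVs, which the series title gives as small intracellular vesicles, and 4 control libraries labelled PBS. Both groups carried the replicate numbers 1, 3, 4 and 5. The labels named no strain, genotype, age, dose, route, time or injury, and did not say whether the libraries came from separate animals, so p-values measure only the spread between these samples. The series title names retinal neuroprotection, and the comparison asks whether transcripts of these regulators differed between sIVs and PBS retinas.

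Rods and cones, the light-sensing neurons of the retina, are specified and kept in their mature state by a small network of transcription factors. The homeodomain protein Otx2 commits precursors to the photoreceptor fate and turns on Crx. Crx then works with Nrl and Nr2e3 to drive rod genes and silence cone genes in rods, while nuclear receptors such as Thrb and Rxrg pattern cone opsins. Most of these genes stay active in adult photoreceptors, and loss of several of them leads to photoreceptor dysfunction or degeneration.

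Depth was 13803958 to 16622259 counts per library, and Gnat1, the rod transducin alpha subunit gene and a defining rod transcript, stood at 6906 to 11493 CPM (counts scaled by library size and TMM factors) in the sIVs libraries and at 5643 to 11068 CPM in the PBS libraries. The library labelled sIVs replicate 4 stood apart. Its 9 tested markers of the pigment epithelium, the pigmented layer behind the photoreceptors, and of pigment cells summed to 463 CPM, against 20.3 to 82.2 CPM in the other libraries. Rgr, Ttr, Rpe65, Rdh5, Dct and Lrat were highest in this library. Pmel was highest in PBS replicate 5 and Tyrp1 in sIVs replicate 5, and Mitf was lowest in sIVs replicate 4, at 6.48 CPM against 7.67 to 33.8 CPM elsewhere. The list had 12 markers, of which Best1, Tyr and Mlana were at 0 counts in at least 1 library and were not tested. In the same library short genes were high and long genes low: protein-coding genes of up to 1000 bases had a median log2 CPM 1.15 above, and those over 8000 bases a median 0.58 below, the mean of the other 7 libraries. In the other 7 libraries these medians lay between -0.34 and 0.12 for the short class and between -0.084 and 0.15 for the long class. Group differences of named genes that this library moves by more than 1.5 times are also given without it.

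No factor gene passed the test for a difference between sIVs and PBS retinas. In edgeR's quasi-likelihood test 0 of the 10 genes had an adjusted p under 0.05, and the test called 0 of 17004 genes overall (0%). At an unadjusted p under 0.05 in the same test the count was 0 of the 10 genes, beside 255 of all genes tested (1.50%). DESeq2 and limma-voom with sample quality weights also called 0 genes, with 322 and 455 at an unadjusted p under 0.05. The groups overlapped for each of the 10 genes, while 341 genes overall (2.01%) did not overlap. Log2 fold changes of sIVs over PBS were positive for 7 of the 10 and negative for 3, with a median of 0.10. Over all genes tested 51.3% were positive and the median was 0.0093. The deposited tables give a transcription factor family to 9 of the 10 genes, all but Samd7, and to 1469 genes in all. Of the 1037 family-annotated genes that were tested, 0 were called, 10 had an unadjusted p under 0.05 in edgeR (0.96%) and the median log2 fold change was -0.060.

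**Figure D1:**
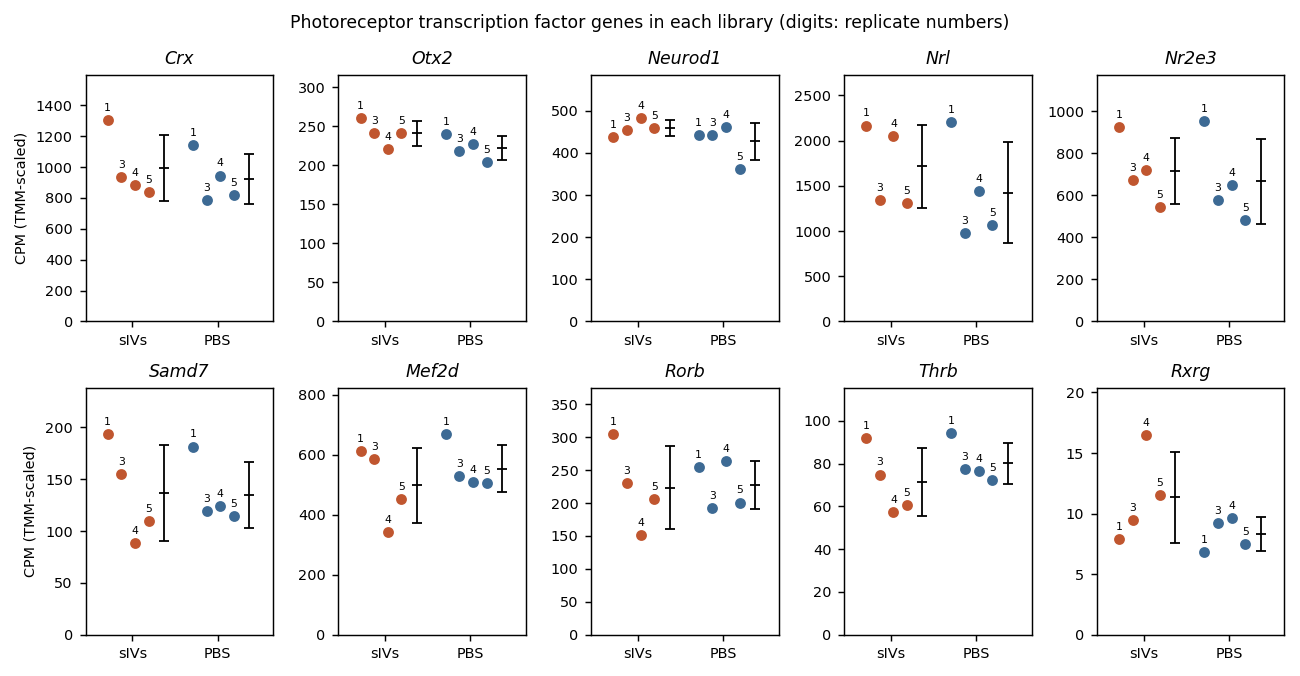
Each panel plots TMM-scaled CPM of 1 factor gene on a linear axis from 0, with sIVs libraries left of PBS libraries, 1 point per library labelled by replicate number, and the group mean with its SD (n = 4) beside them. The replicate 1 libraries of both groups are high for Nrl, Nr2e3 and Samd7, sIVs replicate 4 is lowest for Mef2d, Rorb, Thrb and Samd7 and highest for Rxrg, and the groups overlap in every panel.

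The factor genes spanned a wide range of levels, compared per length in FPKM as means over the 8 libraries. Crx was highest at 297 FPKM, followed by Nrl at 270, Nr2e3 at 201 and Neurod1 at 159. Crx lay above Nrl in 6 of 8 libraries and Nr2e3 above Neurod1 in 7 of 8, so the order within these pairs was not fixed, whereas Nrl was above Nr2e3 in 8 of 8 although their ranges overlapped. Mef2d followed at 86.3 FPKM, Otx2 at 53.8, Samd7 at 33.3 and Rorb at 20.0. The cone nuclear receptor genes were lowest, Thrb at 10.0 and Rxrg at 4.19 FPKM. From Neurod1 downward each gene was above the next in 8 of 8 libraries, although the ranges of Mef2d and Otx2 and of Samd7 and Rorb overlapped across libraries. FPKM rests on the listed gene length, which for the 10 genes equalled the union of all annotated exons. For Nrl this was 5689 bases, over transcripts of 731 to 4973 bases, and no other length was tried.

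Otx2, the homeobox gene at the head of the network, lies on chromosome 14 (48657677 to 48673819, minus strand, mm10). It stood at 261, 241, 221 and 241 CPM in sIVs replicates 1, 3, 4 and 5, against 240, 218, 228 and 204 CPM in PBS replicates 1, 3, 4 and 5. The libraries of both groups lay close together, and PBS replicate 5 was the lowest. The means were 241 ± 16.1 CPM in sIVs and 222 ± 15.6 CPM in PBS retinas (SD, n = 4 each). Their log2 difference was 0.12 ± 0.10 (SE) with an adjusted p of 0.81 in edgeR. The approximate 95% interval of the fold, 0.93 to 1.27, was the narrowest of the 10 genes in log2 terms. With sample quality weights in limma-voom the log2 difference was 0.17, with an unadjusted p of 0.0472 and an adjusted p of 1.00. Otx2 is also used by bipolar cells and by the pigment epithelium. In sIVs replicate 4, where the summed pigment epithelium markers were highest, Otx2 was 0.07 below the mean of the other 7 libraries in log2 CPM. The antisense gene Otx2os1 overlaps it and had 8.00% of its mean count. Whether strand was used in counting is not given in the sources used.

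Crx, the cone-rod homeobox gene, encodes a paralogue of Otx2 that binds regulatory elements of most rod and cone genes. It lies on chromosome 7 (15865947 to 15879968, minus strand). Crx stood at 1306, 939, 885 and 841 CPM in sIVs replicates 1, 3, 4 and 5, against 1142, 784, 945 and 822 CPM in PBS replicates 1, 3, 4 and 5. The replicate 1 library was the highest of its group on both sides, and the other libraries of the groups were interleaved. The log2 difference was 0.10 ± 0.18 (SE; edgeR adjusted p = 0.861), with means of 993 ± 213 CPM in sIVs and 923 ± 161 CPM in PBS retinas (SD, n = 4 each) and a fold interval of 0.81 to 1.43. Leaving out sIVs replicate 1 turned the direction, to -0.058.

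Neurod1 encodes a basic helix-loop-helix factor that supports photoreceptor survival and the cone expression of Thrb. On chromosome 2 (79452521 to 79456751, minus strand), it stood at 438, 455, 482 and 460 CPM in sIVs replicates 1, 3, 4 and 5, against 443, 443, 462 and 362 CPM in PBS replicates 1, 3, 4 and 5. Apart from the low PBS replicate 5, the libraries of both groups lay within the same narrow band. The log2 difference was 0.10 ± 0.11 (SE; edgeR adjusted p = 0.81), with means of 459 ± 18.3 CPM in sIVs and 428 ± 44.5 CPM in PBS retinas (SD, n = 4 each). Its fold interval was 0.90 to 1.28. The annotated span of Cerkl, a gene on the same strand with 21.8% of the mean count of Neurod1, covers it, so reads of the shared stretch are uncertain.

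Nrl, the leucine zipper factor of the Maf family that decides between rod and cone fate, varied most between libraries among the rod factors. It lies on chromosome 14 (55518978 to 55524981, minus strand). Nrl stood at 2167, 1339, 2053 and 1308 CPM in sIVs replicates 1, 3, 4 and 5, against 2209, 977, 1440 and 1070 CPM in PBS replicates 1, 3, 4 and 5. A group of 3 libraries, sIVs replicates 1 and 4 and PBS replicate 1, were above 2000 CPM and the other 5 at 1440 CPM or less. The means were 1717 ± 457 CPM in sIVs and 1424 ± 560 CPM in PBS retinas (SD, n = 4 each). Nrl differed by 0.27 ± 0.29 on the log2 scale (SE), at an adjusted p of 0.81 in edgeR. The fold interval of 0.77 to 1.89 leaves room for a change of nearly 1.9-fold. With 1 library left out at a time this difference ran from 0.13, without PBS replicate 3, to 0.56, without PBS replicate 1 (edgeR adjusted p = 0.89 for the larger value), and was 0.17 without sIVs replicate 4.

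Nr2e3 encodes an orphan nuclear receptor that acts downstream of Nrl and represses cone genes in rods. Its position is on chromosome 9 (59942771 to 59960659, minus strand). Nr2e3 stood at 923, 673, 721 and 545 CPM in sIVs replicates 1, 3, 4 and 5, against 955, 578, 650 and 482 CPM in PBS replicates 1, 3, 4 and 5. Replicate 1 was the highest and replicate 5 the lowest library within each group. The log2 difference was 0.10 ± 0.23 (SE; edgeR adjusted p = 0.892), with means of 715 ± 157 CPM in sIVs and 666 ± 204 CPM in PBS retinas (SD, n = 4 each) and a fold interval of 0.75 to 1.54. It changed sign, to -0.046 without sIVs replicate 1 and to -0.026 without PBS replicate 5.

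Samd7 encodes a sterile alpha motif protein of a Polycomb-type repressor that keeps non-rod genes silent in rods. It lies on chromosome 3 (30746293 to 30767174, plus strand). Samd7 stood at 193, 155, 88.9 and 110 CPM in sIVs replicates 1, 3, 4 and 5, against 182, 120, 124 and 114 CPM in PBS replicates 1, 3, 4 and 5. The sIVs libraries covered the wider range, with both the highest and the lowest of the 8 values. The group means were nearly equal, at 137 ± 46.6 CPM in sIVs and 135 ± 31.5 CPM in PBS retinas (SD, n = 4 each). The log2 difference of 0.021 ± 0.25 (SE; edgeR adjusted p = 0.979) changed sign in 5 of the 8 fits that left out 1 library, from -0.19 without sIVs replicate 1 to 0.19 without PBS replicate 1, and was 0.18 without sIVs replicate 4.

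Mef2d encodes a MADS-box factor that occupies photoreceptor enhancers together with Crx. The gene lies on chromosome 3 (88142372 to 88172086, plus strand). Mef2d stood at 613, 586, 344 and 453 CPM in sIVs replicates 1, 3, 4 and 5, against 670, 530, 508 and 508 CPM in PBS replicates 1, 3, 4 and 5. The 2 lowest values were those of sIVs replicates 4 and 5, and the highest was that of PBS replicate 1. The means were 499 ± 125 CPM in sIVs and 554 ± 78.1 CPM in PBS retinas (SD, n = 4 each), and Mef2d differed by -0.15 ± 0.19 on the log2 scale (SE; edgeR adjusted p = 0.821), or by -0.010 without sIVs replicate 4.

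Rorb encodes an orphan nuclear receptor that acts upstream of Nrl in rod differentiation. Its locus is on chromosome 19 (18930605 to 19111196, minus strand). Rorb stood at 305, 230, 152 and 206 CPM in sIVs replicates 1, 3, 4 and 5, against 255, 192, 263 and 201 CPM in PBS replicates 1, 3, 4 and 5. Highest and lowest values again both belonged to the sIVs group, in replicates 1 and 4. The log2 difference of -0.028 ± 0.21 (SE; edgeR adjusted p = 0.966) lay between -0.22 without sIVs replicate 1 and 0.12 without sIVs replicate 4, and the means were 223 ± 63.5 CPM in sIVs and 228 ± 36.5 CPM in PBS retinas (SD, n = 4 each).

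Thrb, the thyroid hormone receptor gene needed for the medium-wavelength opsin of cones, lies on chromosome 14 (17660261 to 18038090, plus strand). The counts pool all its transcript forms. Thrb stood at 92.2, 74.9, 57.2 and 60.6 CPM in sIVs replicates 1, 3, 4 and 5, against 94.3, 77.7, 76.7 and 72.5 CPM in PBS replicates 1, 3, 4 and 5. As with Mef2d, sIVs replicates 4 and 5 were the lowest of the 8 libraries. The means were 71.2 ± 15.9 CPM in sIVs and 80.3 ± 9.60 CPM in PBS retinas (SD, n = 4 each). Thrb differed by -0.17 ± 0.16 on the log2 scale (SE; edgeR adjusted p = 0.81), and by -0.083 without sIVs replicate 4.

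Rxrg, a retinoid X receptor gene of cones, had the largest log2 difference of the 10 genes and the lowest level. It lies on chromosome 1 (167598384 to 167639623, plus strand), and its libraries held 90 to 252 counts. Rxrg stood at 7.88, 9.45, 16.5 and 11.6 CPM in sIVs replicates 1, 3, 4 and 5, against 6.80, 9.26, 9.68 and 7.52 CPM in PBS replicates 1, 3, 4 and 5. The highest values were those of sIVs replicates 4 and 5, while sIVs replicates 1 and 3 lay within the PBS range. The log2 difference was 0.45 ± 0.24 (SE; edgeR adjusted p = 0.81), with means of 11.3 ± 3.75 CPM in sIVs and 8.32 ± 1.37 CPM in PBS retinas (SD, n = 4 each) and a fold interval of 0.93 to 2.00. The difference was 0.21 when sIVs replicate 4 was left out (edgeR adjusted p = 1.00).

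**Figure D2:**
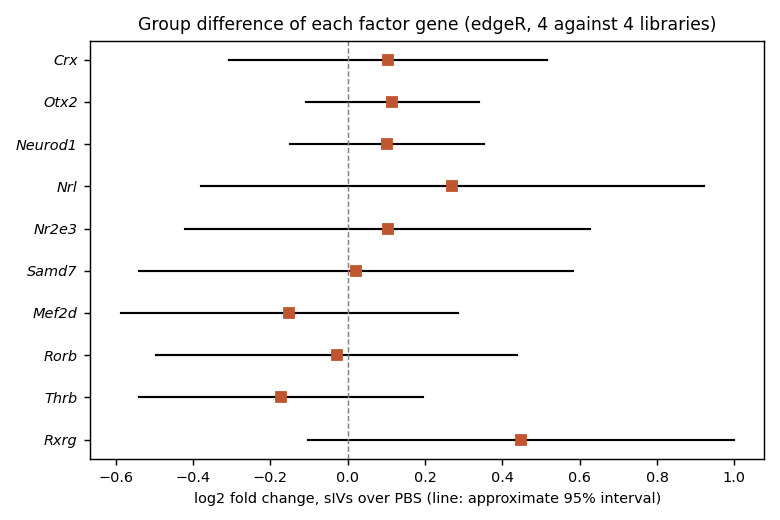
Squares mark the edgeR log2 fold change of sIVs over PBS for each factor gene and lines its approximate 95% interval, over 4 libraries a group. The interval of every gene includes 0, and those of Otx2 and Neurod1 are the narrowest.

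In counts simulated from these libraries, edgeR's test found 4% of the genes given a 1.5-fold change and 40% of those given a 2-fold change, 62% at 3-fold and 86% at 4-fold. Each rate rests on 50 genes drawn at random from all genes tested. It says nothing of a single gene, for which the fold interval gives the precision. The simulated counts were drawn independently for each gene, without shifts shared by the genes of a library such as that of sIVs replicate 4. The rates may therefore not hold for the real libraries. Ratios of factors within a library were compared for 5 pairs with two-sided exact permutation tests. They do not depend on library scaling but do not remove a shift by gene length. The log2 count ratio of Thrb to Nrl averaged -4.58 ± 0.42 in sIVs and -4.08 ± 0.39 in PBS retinas (SD, n = 4 each; exact permutation p = 0.171, adjusted p = 0.786). Nr2e3 to Nrl averaged -1.25 ± 0.21 in sIVs and -1.07 ± 0.21 in PBS retinas (SD, n = 4 each; exact permutation p = 0.314). For Rxrg to Nrl, Crx to Otx2 and Samd7 to Crx the sIVs minus PBS differences were 0.10, -0.018 and -0.11 (exact permutation p = 0.686, 0.857 and 0.60). None of the 5 ratios passed after adjustment, but the adjusted test could not have called a change limited to a single ratio. Without sIVs replicate 4 the difference moved from -0.50 to -0.30 for Thrb to Nrl and from -0.18 to -0.096 for Nr2e3 to Nrl. It was then 0.00033 for Rxrg to Nrl, -0.011 for Crx to Otx2 and 0.024 for Samd7 to Crx. The smallest exact permutation p possible with 4 libraries a group is 0.0286. Adjusted over 5 ratios, a ratio at this value would pass only if several others reached it too. The adjusted result therefore does not decide whether any given ratio changed. Before adjustment the exact permutation p were 0.171 to 0.857, so no ratio separated the groups fully.

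Levels of the factor genes varied between libraries of the same group. Within sIVs the highest CPM was 1.10 to 2.17 times the lowest over the 10 genes, and within PBS it was 1.18 to 2.26 times the lowest, while the larger group mean was 1.01 to 1.36 times the smaller. For 10 of 10 genes the ratio within each group exceeded that between the means. Extremes of single libraries lie further apart than group means for most genes whose groups overlap. The share over all genes was not computed, so this count is not a result about the factors. Over the 8 libraries of both groups, the highest CPM was 2.43 times the lowest for Rxrg, 2.26 times for Nrl, 2.17 times for Samd7, 2.01 times for Rorb and 1.98 times for Nr2e3. It was 1.95 times for Mef2d, 1.67 times for Crx and 1.65 times for Thrb. Otx2 and Neurod1 were the steadiest, at 1.28 and 1.33 times. The SD of log2 CPM over the 8 libraries was 0.46 for Nrl, larger than in 82.6% of 13788 protein-coding genes with a mean of at least 1 CPM. It was 0.11 for Otx2 and 0.12 for Neurod1, larger than in only 9.49% and 12.8% of these genes, whose median was 0.26. Otx2 is also active in bipolar cells, the interneurons that photoreceptors contact, and 10 bipolar markers summed to 1616 to 1904 CPM in sIVs and to 1693 to 1986 CPM in PBS libraries. Taken singly, their highest CPM was from 1.17 times the lowest for Vsx1 to 3.48 times for Gng13. The part of bipolar cells in the steadiness of Otx2 was not tested.

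**Figure D3:**
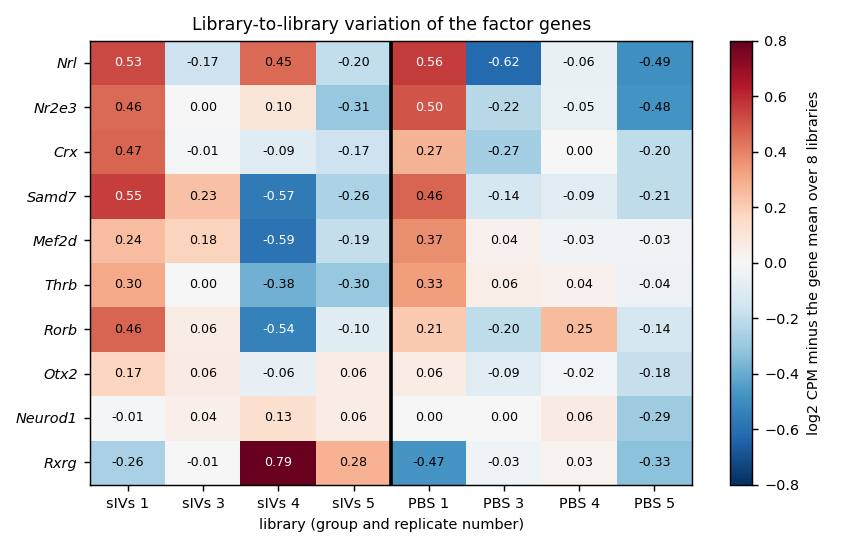
Cells give log2 CPM of each factor gene minus its mean over the 8 libraries, with sIVs libraries left of the line and PBS libraries right of it. The replicate 1 columns of both groups are above the mean for 8 and 9 of 10 genes, and sIVs replicate 3 for 7. PBS replicate 5 is above the mean for 0, and sIVs replicate 4 splits the genes, from 0.79 for Rxrg to -0.59 for Mef2d.

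The replicate 1 libraries led both groups. In sIVs replicate 1, 8 of 10 factor genes were above their mean over the 8 libraries, as were 9 of 10 in PBS replicate 1. The count was 7 of 10 in sIVs replicate 3 and 0 of 10 in PBS replicate 5. In sIVs replicates 4 and 5 and PBS replicates 3 and 4 it was 3 to 5 of 10. The share of all genes above their mean in each library was not computed. Summed over the 10 genes, the level was 6305 CPM in sIVs replicate 1 and 6197 CPM in PBS replicate 1, and between 3842 and 5020 CPM in the other 6 libraries. The 25 listed rod genes, mostly of phototransduction and the outer segment, were high in the same libraries. They summed to 83434 CPM in sIVs replicate 1 and 81706 CPM in PBS replicate 1, against 44392 to 67226 CPM elsewhere. In a whole retina fewer rods and less RNA per rod cannot be told apart. The labels do not say that replicate numbers mark a shared litter, day or batch.

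Nrl, Nr2e3 and Crx followed the level of the rod genes most closely. The rod level was the mean over the 25 genes of log2 CPM minus the gene mean, and 55 relations were computed across the 8 libraries, 45 between factor genes and 10 with the rod level. With the rod level, Nrl had Pearson's r = 0.957 (exact permutation p = 0.00025, adjusted 0.0095) and Spearman's rho = 0.976 (permutation p = 0.0004, adjusted 0.0218; n = 8). Without sIVs and PBS replicate 1, the libraries farthest from the median rod level, r was 0.945 (exact permutation p = 0.0014, n = 6). Nr2e3 and Crx had r = 0.945 and 0.938 (exact permutation p = 0.0011 and 0.00074, adjusted 0.0123 and 0.0102) and rho = 0.881 and 0.929 (permutation p = 0.0072 and 0.0022, adjusted 0.0498 and 0.0307; n = 8). Without the same pair of libraries their r was 0.811 and 0.817, with exact permutation p = 0.0556 and 0.0653, so these relations rest in part on the replicate 1 libraries. CPM are shares of a library, so all genes of a library share its composition.

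**Figure D4:**
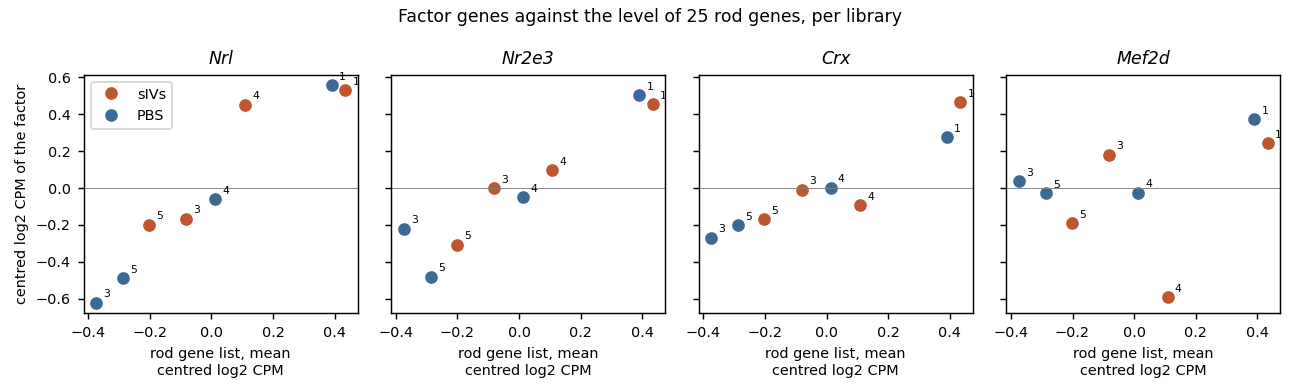
Points are libraries labelled by replicate number, with the mean centred log2 CPM of 25 rod genes on the horizontal axis and the centred log2 CPM of 1 factor gene on the vertical axis. Nrl, Nr2e3 and Crx rise with the rod genes in both groups, whereas Mef2d in sIVs replicate 4 lies at -0.59 despite a rod level of 0.11.

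Mef2d, Thrb and Samd7 also varied together, though by Pearson's r Samd7 was related to Crx and Rorb as well. Mef2d and Samd7 had r = 0.921 (exact permutation p = 0.00035, adjusted 0.0095) and rho = 0.952 (permutation p = 0.0011, adjusted 0.0307; n = 8), and r = 0.913 without PBS replicate 1 and sIVs replicate 4 (exact permutation p = 0.0042, n = 6). For Thrb, r was 0.922 with Mef2d and 0.906 with Samd7 (exact permutation p = 0.00052 and 0.0024, adjusted 0.0095 and 0.0216), with rho = 0.929 and 0.881 (permutation p = 0.0022 and 0.0072, adjusted 0.0307 and 0.0498; n = 8). These were 0.851 and 0.861 without sIVs replicates 4 and 5 (exact permutation p = 0.0319 and 0.0389, n = 6). Rxrg ran the opposite way to Mef2d, with r = -0.912 (exact permutation p = 0.0033, adjusted 0.0217) and rho = -0.738 (permutation p = 0.0458, adjusted 0.168; n = 8). Without PBS replicate 1 and sIVs replicate 4 its r was -0.581 (exact permutation p = 0.228, n = 6), so that relation rests on these libraries. Between the remaining pairs, Nrl with Nr2e3 and Nrl with Crx passed in both measures, with r = 0.892 and 0.809 (exact permutation p = 0.0036 and 0.0108, adjusted 0.0217 and 0.0457) and rho = 0.905 for each (permutation p = 0.0046, adjusted 0.0418; n = 8). Without the replicate 1 libraries these r were 0.759 and 0.61 (exact permutation p = 0.0736 and 0.194, n = 6). Of all 55 relations, 13 passed after adjustment by Pearson's r and 8 in both measures. Those by r alone included Crx with Nr2e3 (r = 0.896), Rorb with Samd7 (0.870), Thrb with Rxrg (-0.869) and Crx with Samd7 (0.827). Their adjusted exact permutation p were 0.0217, 0.0267, 0.0217 and 0.0457. Without the 2 libraries farthest from the median of the first-named gene, their exact permutation p were 0.140 to 0.544 (n = 6). No batch is given in the labels within which the relations could be recomputed. The share of all genes that relate as strongly to these genes was not computed, so the relations cannot be called particular to the factors. The protein-coding genes nearest to Mef2d across libraries, Bace1 and Ralgps2, are not among the 10 factors.

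In sIVs replicate 4 the factor genes departed from the other libraries in both directions. Its log2 CPM minus the mean of the other 7 libraries was 0.90 for Rxrg, with a listed length of 2297 bases, and -0.62 for Rorb, with 11076 bases. For Thrb, of 7403 bases, it was -0.44, for Mef2d, of 5985 bases, -0.67, and for Samd7, of 3999 bases, -0.65. Nrl, of 5689 bases, went the other way at 0.52. Neurod1, Nr2e3, Otx2 and Crx lay between -0.11 and 0.14. Over all protein-coding genes with a mean of at least 1 CPM the median was 0.50 for lengths of 2000 to 3000 bases, 0.21 for 3000 to 4000, -0.068 for 4000 to 6000, -0.27 for 6000 to 8000 and -0.58 above 8000 bases. Samd7 and Mef2d therefore lay furthest below, and Nrl furthest above, the median of genes of their length. Neurod1, Crx, Thrb and Nr2e3 also lay below it and Rxrg above it, while Otx2 and Rorb were close to it. The spread within a length class was not computed. The part of gene length, and of the pigment epithelium transcripts high in this library, in these values was not tested.

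**Figure D5:**
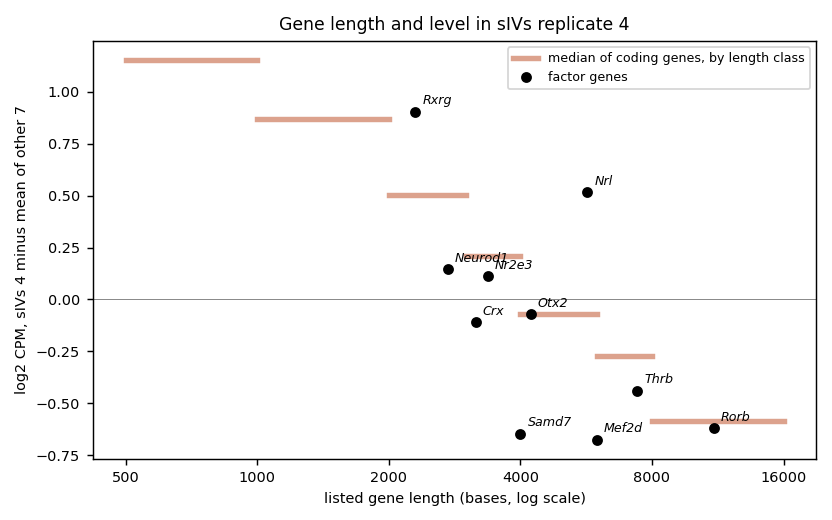
Black points give log2 CPM in sIVs replicate 4 minus the mean of the other 7 libraries for each factor gene against its listed length on a log axis, and bars give the median of all protein-coding genes of a length class (the first and last class are open-ended). Short classes lie above 0 and long classes below it, with Nrl furthest above and Samd7 and Mef2d furthest below the medians of their classes.

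Promoter sequences are shown for Samd7 and Mef2d, whose levels varied together with Thrb, for Rxrg, the lowest of the genes, and for Crx, the highest per length. RefSeq promoter windows (GRCm38.p6, the assembly also called mm10) matched all 10 genes with 16 windows, and the 250 bases before each start were searched on both strands. The motifs were TAATCC with its complement GGATTA, the core that Crx and Otx2 bind, and TGCTGA with TCAGCA, the core bound by Maf-family factors such as Nrl. Each sequence is given 5′ to 3′ on the strand of its gene, with matches in capitals.
Crx, chr7:15879956-15880205, minus strand: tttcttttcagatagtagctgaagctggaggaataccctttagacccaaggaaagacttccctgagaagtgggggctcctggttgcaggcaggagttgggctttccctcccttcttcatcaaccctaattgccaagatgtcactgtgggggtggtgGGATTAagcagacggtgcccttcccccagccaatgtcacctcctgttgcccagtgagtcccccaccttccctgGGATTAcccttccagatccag
Samd7, chr3:30746043-30746292, plus strand: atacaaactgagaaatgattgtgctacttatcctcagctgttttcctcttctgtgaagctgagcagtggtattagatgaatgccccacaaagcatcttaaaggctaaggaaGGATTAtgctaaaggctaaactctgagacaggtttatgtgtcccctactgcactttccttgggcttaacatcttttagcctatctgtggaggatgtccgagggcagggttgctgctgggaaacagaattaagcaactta
Mef2d, chr3:88142122-88142371, plus strand: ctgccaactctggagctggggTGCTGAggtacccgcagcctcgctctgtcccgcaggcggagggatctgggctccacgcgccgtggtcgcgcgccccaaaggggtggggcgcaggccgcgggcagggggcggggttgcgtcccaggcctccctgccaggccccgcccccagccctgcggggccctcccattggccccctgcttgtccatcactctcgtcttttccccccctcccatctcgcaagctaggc
Rxrg, chr1:167598112-167598361, plus strand: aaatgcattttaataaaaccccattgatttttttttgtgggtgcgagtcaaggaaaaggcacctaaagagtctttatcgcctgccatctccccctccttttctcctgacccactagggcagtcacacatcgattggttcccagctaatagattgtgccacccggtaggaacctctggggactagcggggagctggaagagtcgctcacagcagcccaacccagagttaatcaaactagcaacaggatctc

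The Crx window held GGATTA at 94 and 21 bases before the start, and the Samd7 window held it at 139 bases. One of the Thrb windows, not printed, held it at 46 bases. TGCTGA lay 229 bases before the start of Mef2d and 77 bases before that of Rorb, and the Rxrg window held neither core. Of the 16 windows, 4 held the homeodomain core (of Crx, Samd7, Thrb and Otx2) and 4 the Maf core (of Neurod1, Mef2d, Otx2 and Rorb). Among 32817 windows of all genes these shares were 6.25% and 16.1%. The Crx window includes 13 bases that GENCODE M21 annotates as exon, and the other 3 windows shown include 0. Of the windows not shown, the Otx2 window with the homeodomain core is annotated as exon over all 250 bases, and that of Thrb over 68. Those of Neurod1, Otx2 and Rorb with the Maf core include 149, 136 and 0 exon bases. Some Otx2 windows overlap each other, so the 16 windows are not all separate sequence. Of the genes that varied together, Samd7 and Thrb held the homeodomain core and Mef2d the Maf core in these windows.

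Related family members stood at other levels in the same retinas. For Thra, the sister gene of Thrb, the mean over 8 libraries was 57.4 FPKM (50.6 to 74.3), above the 10.0 FPKM of Thrb in mean. Rxrb and Rxra stood at 21.9 and 12.6 FPKM, both above Rxrg at 4.19 FPKM. Mef2d at 86.3 FPKM was far above Mef2a at 7.91 and Mef2c at 3.93 FPKM, and Neurod1 at 159 FPKM above Neurod4 at 56.6 FPKM. Rora at 16.1 FPKM (11.3 to 18.5) overlapped Rorb at 20.0 FPKM (13.3 to 26.9) across libraries, and so did Samd11 at 40.1 FPKM (25.7 to 65.4) with Samd7 (21.6 to 47.3). Among 17 such relatives, 16 were tested and 0 passed, 11 with a positive and 5 with a negative log2 fold change (median 0.067, and 0.0021 without sIVs replicate 4). Otx1 did not pass the filter. Rxrb, the relative of smallest p, differed by 0.16 ± 0.13 on the log2 scale (SE; edgeR adjusted p = 0.81), and by 0.037 without sIVs replicate 4.

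Other regulators of photoreceptor fate and the genes that the network controls did not pass either. Of 12 further regulators 0 were called, with 5 positive and 7 negative log2 fold changes and a median of -0.071 (0.016 without sIVs replicate 4). Rax, a retinal homeobox gene, stood at 290 CPM in sIVs replicate 4 and at 104, 104 and 130 CPM in sIVs replicates 1, 3 and 5, against 104, 91.8, 114 and 96.8 CPM in PBS replicates 1, 3, 4 and 5. Its log2 difference of 0.63 ± 0.32 (SE; edgeR adjusted p = 0.81) was 0.15 without sIVs replicate 4. Ankrd33, a repressor of Crx activity, differed by 0.22 ± 0.20 on the log2 scale (SE; edgeR adjusted p = 0.81), and by 0.099 without that library. Esrrb, a rod nuclear receptor gene named after its values were seen, was, like Samd7, lowest in sIVs replicate 4, with 559, 425, 182 and 297 CPM in sIVs replicates 1, 3, 4 and 5, against 519, 237, 399 and 297 CPM in PBS replicates 1, 3, 4 and 5.

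Of the 25 rod genes 0 were called, 18 had a positive log2 fold change and the median was 0.17. The rod genes of smallest p were Gngt1, a transducin subunit, and Fscn2, an actin-bundling gene of photoreceptors, with log2 differences of 0.55 ± 0.27 and 0.52 ± 0.28 (SE; edgeR adjusted p = 0.81 for each). Both were highest in sIVs replicate 4, Gngt1 at 825 CPM against 290 to 512 CPM elsewhere and Fscn2 at 232 CPM against 73.5 to 153 CPM elsewhere. Without that library their log2 differences were 0.23 and 0.25, and the median of the 25 rod genes was 0.11. Among 10 cone genes 0 were called and 7 were positive, with a median of 0.17. Pde6h and Gngt2, which encode cone phosphodiesterase and transducin subunits, had log2 differences of 0.51 ± 0.28 and 0.60 ± 0.34 (SE; edgeR adjusted p = 0.81 for each). Like Rxrg, both were highest in sIVs replicate 4. There Pde6h stood at 227 CPM, against 86.1 to 114 CPM elsewhere, and Gngt2 at 48.7 CPM, against 13.4 to 22.0 CPM elsewhere. Without that library their log2 differences were 0.11 and 0.13, and the median of the 10 cone genes was 0.061. Summed over the 10 cone genes, sIVs replicate 4 held 2075 CPM and the other libraries 1276 to 1551 CPM.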

How the data were processed

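The members and gene lists were chosen with earlier results of these data known. Libraries were poly(A)-selected and marked strand, per the labels' protocols. What the authors deposited were whole-number counts and FPKM values for each gene. The submitters' processing notes name the build mm10, while aligner and counter were not given in the sources used. FPKM equalled counts per listed length and library total times 0.943 to 1.03 in each library (median over genes). Genes passing filterByExpr (17004 of 54532) were scaled with TMM and tested with edgeR 4.0.16 (quasi-likelihood, R 4.3.3), group as the only term, Benjamini-Hochberg adjustment over all genes. Each standard error was the size of the log2 fold change over the root of the F statistic, so intervals are approximate. Log2 CPM used a prior count of 2. Alternatives used DESeq2 1.42.0, limma 3.58.1 and scipy 1.17.1 exact permutation tests, other scaling, no filter, FPKM with pseudocounts 1 and 0.1, a replicate block, and fits leaving out each library in turn. All pairs of libraries within a group differed by more than counting noise (lowest chi-square per degree of freedom 6.22). The named genes were the 10 factors, the 2 genes of smallest p of each related list and, for each factor, the 2 protein-coding genes nearest to it in centred log2 CPM. The edgeR test was checked on simulated counts without shared library shifts, with 4 false calls among 17004 genes. Some items are not reported here.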

Additional observations from a re-analysis of the deposited data

Results flagged for a closer look

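Group by group, a library was set against the others of its group for the CPM of the 10 factor genes and the 5 ratios, 30 groups of 4 libraries in all, of which chance would single out about 5%. PBS replicate 1 was far above the rest of its group for Mef2d, at 670 CPM against 508 to 530 CPM, and for Samd7, at 182 CPM against 114 to 124 CPM. In PBS replicate 3 the log2 count ratio of Nr2e3 to Nrl was -0.76, far from the values of -1.21 to -1.15 in the other PBS libraries. PBS replicate 1 was also the library with the lowest summed microglia markers, at 60.9 CPM, against 165 to 359 CPM in the sIVs libraries and 192 to 263 CPM in the other PBS libraries. The part of that difference in the values of Mef2d and Samd7 was not tested.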

How the results depend on the processing

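The count of genes past the threshold was 0 in the main fit and in each of the 17 alternatives run, for all genes and for the 10 factor genes. Signs of the small differences did move. With sample quality weights in limma-voom the log2 differences were 0.14 for Rorb and 0.068 for Mef2d. Without both sIVs replicate 4 and PBS replicate 1 they were 0.18 for Rorb, 0.0051 for Thrb and 0.10 for Mef2d, and the ratio differences were -0.33 for Rxrg to Nrl, 0.059 for Crx to Otx2 and 0.068 for Samd7 to Crx. For Samd7 the difference was -0.024 and -0.026 on log2(FPKM + 1) and log2(FPKM + 0.1), and -0.015 with the replicate block. Leaving out each library in turn gave -0.058 to 0.22 for Crx, 0.13 to 0.56 for Nrl, -0.046 to 0.32 for Nr2e3, 0.073 to 0.15 for Otx2, -0.22 to 0.12 for Rorb, -0.32 to -0.083 for Thrb, 0.21 to 0.58 for Rxrg, -0.27 to -0.010 for Mef2d, 0.027 to 0.14 for Neurod1 and -0.19 to 0.19 for Samd7. The ratio differences ranged from -0.23 to 0.38 for Rxrg to Nrl, -0.66 to -0.30 for Thrb to Nrl, -0.27 to -0.081 for Nr2e3 to Nrl, -0.12 to 0.054 for Crx to Otx2 and -0.21 to 0.024 for Samd7 to Crx. The cause of these turns was not tested. With the replicate block 588 genes had an unadjusted p under 0.05, against 255 without it, and the paired ratio differences had exact sign-flip p of at least 0.125, the smallest that 4 pairs allow. Same-numbered libraries correlated at 0.60, 0.025, 0.23 and 0.51 for numbers 1, 3, 4 and 5 in their deviations from the group means. For sIVs replicates 1, 4 and 5 the same-numbered PBS library correlated best, while sIVs replicate 3 correlated best with PBS replicate 1. Whether the numbers mark pairs is therefore not settled, and the main fit did not use them. With the block Nrl differed by 0.31 and Rxrg by 0.41, the lowest p of the 10 genes (edgeR unadjusted p = 0.0504 and 0.0563, adjusted p = 0.655 for each). Without the block these unadjusted p were 0.373 and 0.0991. For Rxrg, at 90 to 252 counts, depth adds to the error.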

Other observations

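Markers of other retinal cell types were counted in the same test, and 0 genes of these lists were called. Log2 fold changes of sIVs over PBS were positive for 6 of 10 bipolar, 1 of 4 horizontal, 2 of 8 amacrine, 5 of 7 ganglion cell and 3 of 7 Mueller glia markers, with medians of 0.021, -0.10, -0.18, 0.045 and -0.13. They were positive for 10 of 10 microglia markers (median 0.55), which summed to 165 to 359 CPM in sIVs and 60.9 to 263 CPM in PBS libraries, and for 7 of 9 pigment epithelium markers (median 1.17), of which sIVs replicate 4 held the most. Without that library the medians were 0.27 for microglia (9 of 10 positive) and 0.018 for pigment epithelium markers (5 of 9 positive). Over the bipolar, horizontal, amacrine, ganglion cell and Mueller glia markers they were then -0.0092, -0.019, -0.059, -0.015 and -0.12, and 0 genes were called.

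For each factor gene the protein-coding genes of at least 1 CPM were ordered by the root mean square difference in log2 CPM, centred on the gene mean, over the 8 libraries. Among 13787 genes, Nxnl1, a rod-derived thioredoxin-like gene of the rod list, was second nearest to Nrl at 0.089, after D1Ertd622e at 0.088. Ppef2, a photoreceptor phosphatase gene, was nearest to Nr2e3 at 0.072, and Vps37c followed at 0.076. Ndrg3 and Wdr17 were nearest to Crx at 0.034 and 0.044, Bace1 and Ralgps2 to Mef2d at 0.036 and 0.040, and Dyrk2 and Snrk to Rorb at 0.067 and 0.080. Trnp1 and Pus1 lay nearest to Rxrg at 0.078 and 0.091, Utp20 and Smc4 to Thrb at 0.046 and 0.049, and 1700030J22Rik and Fam227a to Samd7 at 0.060 and 0.066. The steady genes Otx2 and Neurod1 were nearest to Taf1a and Mynn at 0.041 and 0.043, and to Zfp346 and Ppid at 0.038 and 0.049.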
